A study of Arabidopsis thaliana with 6 samples.

Results

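Of 1535 binding peaks deposited for the transcription factor SPL7 in seedlings of Arabidopsis thaliana, 319 (20.8%) shared no base with the locus interval of any gene entry in the expression files that accompany the peak list, and they are described here as the peaks outside annotated loci. A peak was a member where it had no overlap of 1 bp or more with any of 25333 distinct locus intervals, which together carry 27052 gene entries. Of the 319 members, 86 lay in a dense run on chromosome 2, from position 3260314 to 3501558 of the TAIR10 genome, and 233 lay elsewhere; the run is described apart from the rest. The other 1216 peaks overlapped a locus and serve for comparison.

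SPL7 is a member of the SBP-domain family of plant transcription factors and is known as a regulator of copper homeostasis: when copper is scarce it is known to activate genes for copper uptake and genes of microRNAs that repress transcripts of copper-containing proteins, among them the microRNA families miR397, miR398, miR408 and miR857. The SBP domain is known to bind DNA at a short motif with the core GTAC. Space between genes in Arabidopsis holds promoters, microRNA genes and other noncoding genes along the chromosome arms, and repeats and transposon remnants around the centromeres, and the region around the centromere of chromosome 2 is known to hold a large insertion of mitochondrial DNA. Peak sequences and their motif content were not analysed here.

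Binding was measured by chromatin immunoprecipitation and sequencing (ChIP-seq) with a FLAG antibody in whole seedlings aged 7 days with the transgene 35S:FLAG-SPL7, and spl7 mutant seedlings of that age served as negative control, both on standard MS (Murashige and Skoog) medium without added copper. The 35S promoter is active in most cell types, so the tagged protein is not confined to the cells in which SPL7 is normally made. RNA-seq gave transcript levels for 4 groups of whole seedlings, also aged 7 days, namely the spl7 mutant on MS, Col-0 wild type on MS, spl7 on MS with 5 µM CuSO4 and wild type on MS with 5 µM CuSO4. Each of the 6 groups is 1 library and the peaks form 1 list, so differences between groups or sets of peaks could not be checked against replicates and carry no p-value.

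The SPL7 transcript stood at 20.2 FPKM (Cufflinks' measure of fragments per length of transcript, scaled for library size) in spl7 on MS, against 107 FPKM in wild type on MS, and at 20.7 FPKM in spl7 with copper, against 105 FPKM in wild type with copper. Over all entries the 4 libraries had medians of 29.3 to 30.3 FPKM, and 7081 to 7228 entries were listed at 0. All 4 shoot markers and all 4 root markers were above 0 in every library. The number of reads behind each FPKM value is unknown.

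At the median, members outside the run were somewhat narrower and lower in score than peaks over loci. Their median width was 340 bp (186 to 2459 bp), against 372 bp for peaks over loci (163 to 4949 bp), and their median score was 197 (165 to 3100), against 226 for peaks over loci (165 to 3126). The score is the value the authors deposited with each peak and serves here to describe and order the peaks of that list only. A score of 400 or more was held by 25 of the 233 members outside the run (10.7%), against 323 of 1216 peaks over loci (26.6%). The peaks over loci were not limited to those outside the run. They include 33 from its interval, with a median width of 218 bp and a median score of 534. On chromosomes 1 to 5 in turn, 35, 37, 54, 37 and 70 members lay outside the run. Wider members tended to have higher scores, with a Spearman correlation of 0.49 across the 233 peaks, which all come from 1 list.

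The median distance from a member outside the run to the edge of the nearest locus was 890 bp, and the quartiles were 274 and 3064 bp. The nearest locus was within 1 kb for 125 of the 233 members (53.6%), within 3 kb for 174 (74.7%) and beyond 20 kb for 38 (16.3%). For 44 members both flanking loci lay within 1 kb. Loci stand close together in general, as the 25312 gaps between them had a median length of 976 bp. The gaps around the 233 members were longer, with a median of 5023 bp when each member is counted once. A gap must be at least as long as a peak to hold it. Members with a score at or above the median of the list had a median distance of 8925 bp. Distance and score had a Spearman correlation of 0.34 over the 233 members. Over the 191 members in gaps shorter than 100 kb it was 0.065, so farther members did not clearly score higher there. The files carry no strand, so a peak before a gene's start cannot be told apart from a peak after its end. The boundary between members and the rest is a matter of a few bases for some peaks: 9 members outside the run lay 10 bp or less from a locus, 3 peaks over loci overlapped one by 10 bp or less, and 377 of the 1216 peaks over loci lay partly outside them.

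**Figure D1:**
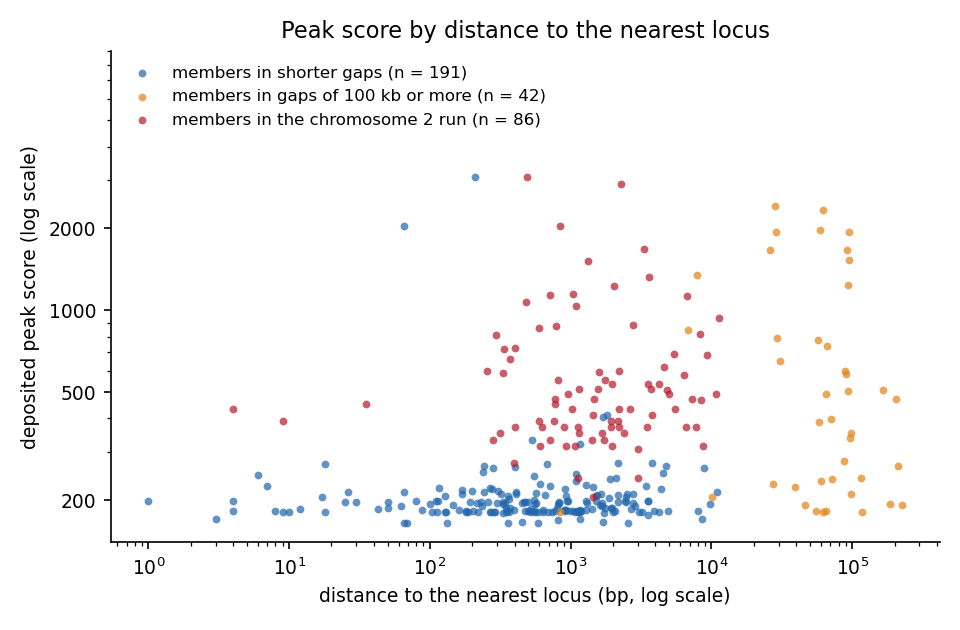
Each point is 1 member peak, with the distance to the nearest locus on a log axis in bp and the deposited score on a log axis. The 191 members in shorter gaps lie within 10928 bp of a locus and mostly near a score of 195, while the 42 members in gaps of 100 kb or more reach 226110 bp and the 86 members of the chromosome 2 run mostly score above those in shorter gaps.

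Most of the high scores outside the run came from a few long stretches without gene entries, although the highest of all, 3100, did not. Of the 10 members of highest score, 8 lay in gaps of 100 kb or more between neighbouring loci, as did 18 of the first 20; this length was chosen after the values were seen. Such gaps numbered 26 of 25312 and held 42 members, all in 4 of them, where the median score was 435 and the median width 408 bp. The 191 members in shorter gaps had a median score of 195 and a median width of 339 bp, and their median distance to a locus was 560 bp. A score of 400 or more was held by 21 of the 42 members in long gaps and by 4 of the 191 in shorter gaps. Long gaps held 0.927 members per 100 kb of space between loci, against 0.347 in shorter gaps.

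The gap on chromosome 5 between AT5G30520 and AT5G32440, 440254 bp long, held 21 members with scores of 181 to 1946. Within it 11 members sat in a stretch of 11.2 kb at chr5:11724178-11735370 (TAIR10), including the 3 members of the first 10 that came from this gap, at chr5:11730941-11732002 with a score of 1946, at chr5:11728346-11729098 with 1668 and at chr5:11732330-11733324 with 1526. By gene order in RefSeq (assembly TAIR10.1), the gap holds 68 genes without an entry in the files, of which 60 are pseudogenes and 6 are microRNA genes. AT5G30520 was listed at 0 in all 4 libraries, and AT5G32440 stood at 287 FPKM in spl7 on MS, 222 FPKM in wild type on MS, 247 FPKM in spl7 with copper and 244 FPKM in wild type with copper.

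The gap on chromosome 3 between AT3G32980 and AT3G33187, 490689 bp long, held 12 members with scores of 182 to 2345. The member at chr3:13591554-13592198 had the score 2345 and that at chr3:13589025-13589733 had 1968; both belonged to a group of 5 members within 5.64 kb. The RefSeq table places 70 genes without an entry in this gap, 63 of them pseudogenes. AT3G32980 was abundant, at 1057 FPKM in spl7 on MS and 1060 FPKM in wild type on MS, and AT3G33187 was listed at 0 in all 4 libraries. This gap also held 4 of the 5 members farthest from any locus, at chr3:13794291-13794576, chr3:13809670-13809989, chr3:13814707-13814935 and chr3:13853824-13854184, which lay 226110, 210697, 205751 and 166502 bp from the nearest locus with scores of 192, 268, 473 and 510. The other of the 5, at chr5:11822109-11822461, lay 185470 bp from a locus in the chromosome 5 gap and had a score of 195.

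The gap on chromosome 4 between AT4G06688 and AT4G06740, 120952 bp long, held 8 members, of which 5 sat within 5.15 kb. Of these, chr4:3952645-3953244 had a score of 2408, chr4:3953350-3953864 a score of 1946 and chr4:3950472-3951682 a score of 1666. Both flanking loci were listed at 0 in all 4 libraries. The fourth long gap with a member, on chromosome 1 between AT1G38131 and AT1G38630, held 1 peak of score 182, which lay 840 bp from a locus. In all 3 gaps with several members the highest scores sat in a cluster of at most 11.2 kb, although members farther away reached 791 on chromosome 5 and 1345 on chromosome 3.

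**Figure D2:**
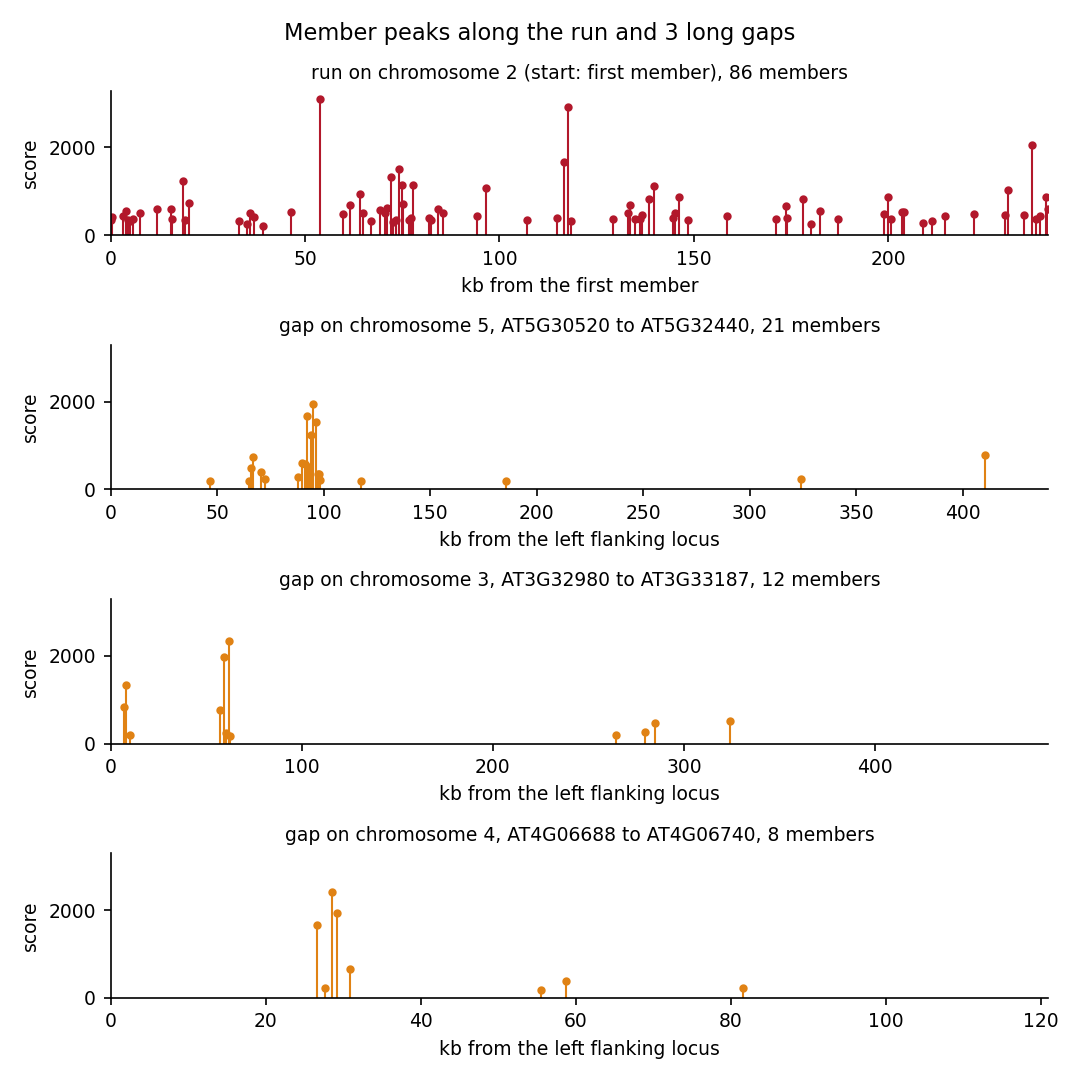
Each line and point is 1 member peak, with its distance in kb on the horizontal axis and its deposited score on the vertical axis, for the chromosome 2 run (86 members) and for the gaps on chromosomes 5, 3 and 4 (21, 12 and 8 members). Members are spread along the whole run, while in the gaps the highest scores sit in clusters of 5.15 to 11.2 kb.

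Only 2 of the 10 highest-scoring members outside the run lay in shorter gaps. The first, chr4:16700530-16702988, was also the widest member at 2459 bp and had the score 3100, a value that 24 of the 1535 peaks share and 1 exceeds. It lay 208 bp from AT4G35080, which stood at 142 FPKM in spl7 on MS and 151 FPKM in wild type on MS, and 5563 bp from the aquaporin gene PIP3, at 3769 FPKM in spl7 on MS and 3525 FPKM in wild type on MS. By gene order the catalase gene CAT2, which codes for an enzyme that breaks down hydrogen peroxide in leaf peroxisomes, stands between those loci and has no entry in the files used here, so whether the peak lies over it cannot be read from them. A smaller member of 353 bp and score 211 lay in the same gap. The other, chr3:7104317-7104833 with a score of 2034, lay 66 bp from AT3G20362, listed at 0 in all 4 libraries, and 537 bp from AT3G20370, at 746 FPKM in spl7 on MS and 711 FPKM in wild type on MS.

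The case of CAT2, a protein-coding gene without an entry in the same gap, applies to a minority of members in shorter gaps. In the run it applies to 69 of 86 members, but the 86 share 28 gaps, so a gap is counted once for each of its members. Of the 178 members in shorter gaps whose flanking loci were both matched to RefSeq, 92 (51.7%) had no further RefSeq gene between the flanking loci, 24 had a protein-coding gene there, 44 had a long noncoding RNA gene, 17 a pseudogene, 13 a microRNA gene, 10 a tRNA gene and 2 a ribosomal RNA gene. Some had several kinds. A gene between the flanking loci can lie anywhere in the gap, so these counts do not place a peak on it. The same shares over all gaps were not computed. With each of the 191 members in shorter gaps counted once, their gaps had a median length of 3769 bp. All 25312 gaps had a median of 976 bp, and a longer gap has room for more genes. The counts are therefore not read as a result about the members.

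The microRNA genes include 1 that belongs to the known copper pathway. A member of 398 bp and score 266 at chr5:4694331-4694728 lay between the shared locus of AT5G14550 and AT5G14560, 244 bp away, and the locus of the nitrate transporter NRT2.7, 355 bp away, and the RefSeq order places MIR398c there. miR398 is known to repress transcripts of copper/zinc superoxide dismutases and of their copper chaperone. Among the 191 members in shorter gaps it ranked 12 of 191 by score. A second peak, chr5:4690462-4691151 with a score of 743, overlapped AT5G14550 by 146 bp at the other end and was no member; RefSeq places MIR398b inside that gene. Another peak, chr2:19319530-19319925 with a score of 283, overlapped AT2G47020 by 241 bp and was no member; RefSeq places MIR408 inside that gene. No peak lay between the loci that flank MIR397a, MIR397b, MIR398a or MIR857. The microRNA precursors have no entry in the files, so their own transcripts were not analysed here.

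The locus beside the MIR398c peak was the only one nearest to a member that was counted lower in spl7 on MS. AT5G14550 stood at 17.1 FPKM in spl7 on MS, 66.4 FPKM in wild type on MS, 15.7 FPKM in spl7 with copper and 18.4 FPKM in wild type with copper. Wild type on MS was thus the high library and the other 3 lay close together. On the scale of log2(FPKM + 1), which understates the change of low genes, the ratio was -1.90 for spl7 over wild type on MS, -0.22 for spl7 over wild type with copper, -1.80 for copper over MS in wild type and -0.12 for copper over MS in spl7; the ratios of spl7 over wild type on MS and of copper over MS in wild type share the wild-type MS library. The files list AT5G14560 at 0 in all 4 libraries for the same interval, and reads of overlapping transcripts such as MIR398b cannot be told apart from those of AT5G14550 without strand. NRT2.7, on the other side of the peak, stood at 76.5 FPKM in spl7 on MS, 101 FPKM in wild type on MS, 79.7 FPKM in spl7 with copper and 72.4 FPKM in wild type with copper, with a ratio of -0.40 on MS that was not counted.

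**Figure D3:**
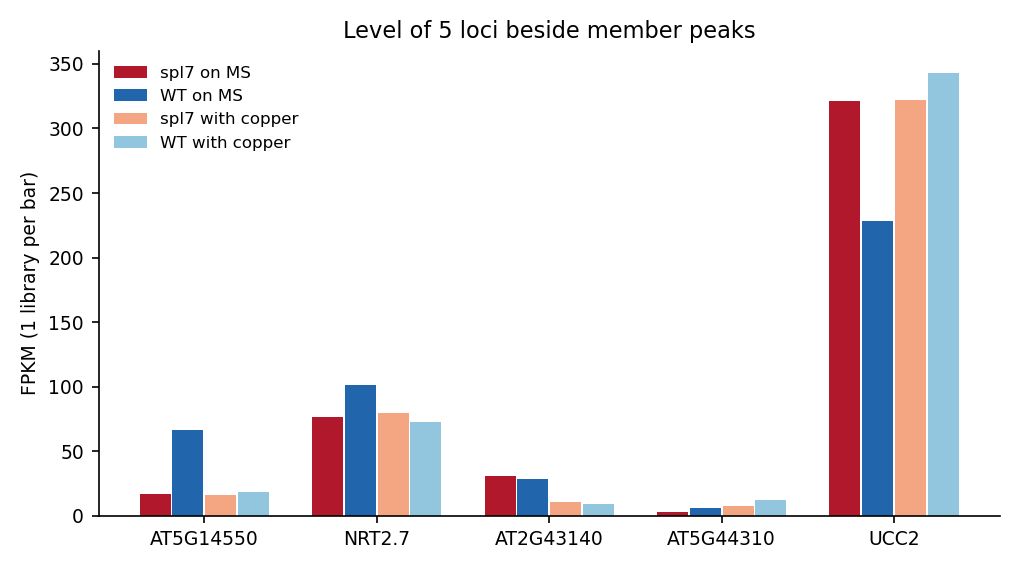
Bars give the FPKM value of 5 loci that flank a member peak, with 1 library per bar and no error bar. AT5G14550 lies between 15.7 and 18.4 FPKM in 3 libraries, against 66.4 FPKM in wild type on MS, and AT2G43140 is lower in both libraries with copper.

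The copper lists held 49 genes, of which 41 were matched to an entry; 7 of these had a peak over their locus and 1 was flanked by a member, against 4.21% of all entries under a peak and 1.64% flanking a member. The 7 made up a larger share of the 41 than 4.21%, and no test was run on this difference. The share of 4.21% makes no allowance for level. Entries under a peak had a median of 466 FPKM in wild type on MS, against 29.8 FPKM for all entries. Outside the copper lists, a peak lay over 4 of 4 shoot markers, 1 of 4 root markers and 0 of 7 seed markers. The 7 copper genes include SPL7 itself, the gene that the FLAG-SPL7 transgene carries, with 6 peaks over its locus. Whether those 6 peaks come from the transgene was not tested. The 1 flanked gene is too few to be read against 1.64%. The flanked gene was UCC2, which codes for a uclacyanin, a small blue copper protein of the kind whose transcripts miR408 is known to target. Its member peak, chr2:18463527-18463873, was 347 bp wide, had a score of 196 and lay 217 bp from the locus. UCC2 stood at 322 FPKM in spl7 on MS, 229 FPKM in wild type on MS, 322 FPKM in spl7 with copper and 343 FPKM in wild type with copper. The wild-type MS library was the lowest of the 4, with a log2 ratio of 0.49 for spl7 over wild type on MS that was below 2-fold and not counted. Of the 14 genes of copper uptake and reduction, 0 were flanked by a member and 0 had a peak over their locus.

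Other microRNA genes stood in the same gap as a member, and they are named after their values were seen. MIR407 stood in a gap with 2 members, of scores 404 and 182. MIR391 stood in the gap of a member of score 235 between AT5G60400, at 1088 bp, and the SUMO ligase gene SIZ1, at 1246 bp. MIR167a, of a family known to target auxin response factors, stood in the gap of a member of score 226 that lay 3439 bp from the meiotic recombinase gene DMC1. MIR166b, of a family known to target class III homeodomain-leucine zipper factors, stood in the gap of a member of score 199. MIR4240 stood in the gap of a member of score 195 that lay 2890 bp from the iron transporter gene IRT1 and 1305 bp from RING. IRT1 stood at 20.2 FPKM in spl7 on MS, against 61.7 FPKM in wild type on MS, and at 34.7 FPKM in spl7 with copper, against 63.3 FPKM in wild type with copper; it was the farther of the flanking loci and does not enter the counts of nearest loci.

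The loci nearest to members outside the run were expressed at levels between those of all genes and those of genes under a peak. The 199 nearest entries, at 192 loci, had medians of 48.5 FPKM in spl7 on MS, 49.4 FPKM in wild type on MS, 52.3 FPKM in spl7 with copper and 49.3 FPKM in wild type with copper. The 1138 entries under a peak had medians of 490, 466, 461 and 449 FPKM in the same libraries, and all 27052 entries had medians of 29.3, 29.8, 29.8 and 30.3 FPKM. In wild type on MS, 75 of the 199 nearest entries (37.7%) reached 100 FPKM, against 74.7% of entries under a peak and 26.1% of all entries. Of the 199, 24 also lay under another peak, against 4.21% of all entries under a peak. Listed at 0 in all 4 libraries were 42 (21.1%), against 24.7% of all entries and 6.5% of entries under a peak. Limiting the nearest loci to those within 1 kb of a member gave medians of 55.4 FPKM in spl7 on MS and 57.3 FPKM in wild type on MS.

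**Figure D4:**
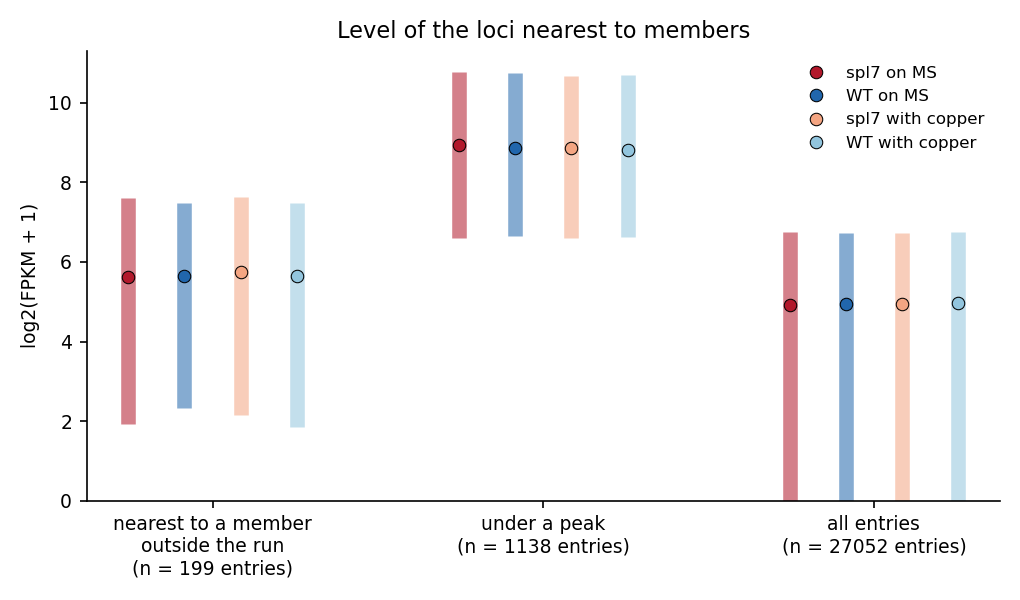
Points are medians and bars run from the lower to the upper quartile of log2(FPKM + 1) in each of the 4 libraries, for the 199 entries nearest to a member outside the run, the 1138 entries under a peak and all 27052 entries. In every library the nearest entries lie above all entries and well below entries under a peak.

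The 4 most abundant of the nearest genes are named after their values were seen. PSBTN, a small subunit of photosystem II, stood at 12246 FPKM in spl7 on MS and 11017 FPKM in wild type on MS, with a member of score 214 at 412 bp. CA1, a chloroplast carbonic anhydrase, stood at 10242 FPKM in spl7 on MS and 9428 FPKM in wild type on MS, with a member of score 211 at 411 bp. RPT2, a component of phototropin signalling, stood at 3850 FPKM in spl7 on MS and 3222 FPKM in wild type on MS, with a member of score 209 at 655 bp. LOX2, the lipoxygenase of jasmonate synthesis, stood at 2924 FPKM in spl7 on MS and 1952 FPKM in wild type on MS, with a member of score 204 at 1887 bp. These 4 genes also lay under another peak.

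Few of the nearest loci differed between the libraries. The count took entries with 5 FPKM or more in at least 1 of the libraries compared and a difference of 2-fold or more in FPKM + 1. Between spl7 and wild type on MS, 0 of 147 nearest entries that reached the minimum were higher, against 0.541% of all 18658 entries that reached it, and 1 (AT5G14550) was lower, against 1.05%. With copper, 0 of 146 were higher in spl7, against 0.989% of all, and 0 were lower, against 0.814%. Between copper and MS in wild type, 0 of 147 were higher, against 0.95% of all, and 2 were lower, against 0.379%. Between copper and MS in spl7, 1 of 146 was higher, against 1.99% of all, and 1 was lower, against 0.524%. These counts of at most 2 are too small for a comparison with the shares of all entries. The median log2 ratio for spl7 over wild type on MS was 0.0070 over the nearest entries that reached the minimum and -0.0016 over all such entries.

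AT2G43140 was the other locus counted lower with copper in wild type. It stood at 10.3 FPKM in spl7 with copper and 30.9 FPKM in spl7 on MS, and at 9.31 FPKM in wild type with copper and 28.1 FPKM in wild type on MS, so both libraries with copper were below both on MS. Its log2 ratio of copper over MS was -1.50 in spl7 and -1.50 in wild type, and its ratio of spl7 over wild type was 0.13 on MS. Its member peak, chr2:17937314-17937595, had a score of 193 and lay 1627 bp away. AT5G44310 was counted higher with copper in spl7, at 7.19 FPKM with copper and 2.63 FPKM on MS, while wild type had 11.8 FPKM with copper and 5.86 FPKM on MS; it is named after its values were seen. Its member peak of score 214 lay 26 bp away. The summed level of 7 seed markers moved with copper as well, at 485 FPKM in spl7 with copper and 178 FPKM in spl7 on MS, and at 596 FPKM in wild type with copper and 282 FPKM in wild type on MS, and its part in the AT5G44310 values was not tested. The sum in spl7 rests on 2 of the 7 markers, the seed storage protein genes CRA1, at 331 FPKM with copper and 102 FPKM on MS, and CRU3, at 133 FPKM with copper and 49.9 FPKM on MS; 3 others were lower with copper in spl7 and 2 were listed at 0 in both spl7 libraries. In wild type all 7 were higher with copper. Of the 7 markers, 3 were listed at 0 in spl7 with copper, 2 in spl7 on MS, 0 in wild type with copper and 1 in wild type on MS.

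The run on chromosome 2 held 86 members from chr2:3260314 to chr2:3501558, a span of 241 kb that also held 32 peaks over loci. The members covered 10.5% of the span, with a median step of 1595 bp from the start of one member to the next. There were 47.6 members per 100 kb of space between loci in the run, against 0.391 per 100 kb outside it. The nearest other peaks of the list stood 171 kb to the left and 104 kb to the right. The locus to the left of the first member is AT2G07672 and that to the right of the last is AT2G07835, both listed at 0 in all 4 libraries.

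Members of the run were narrower and higher in score than the other members. Their median width was 214 bp (179 to 2004 bp), and 62 of 86 (72.1%) were under 250 bp, against 7 of 233 members outside the run and 27 of 1216 peaks over loci. Their median score was 471 (206 to 3100), and 54 of 86 (62.8%) had a score of 400 or more. The 1216 peaks over loci include 33 from the run's interval, which is slightly wider than the span of its members. Those 33 had a median width of 218 bp and a median score of 534, so narrow peaks of high score were not particular to the members there. Scores recurred within each set except that of the long gaps: the 86 members of the run held 48 distinct values, the 191 members in shorter gaps 121, the 42 members in long gaps 42 and the 1216 peaks over loci 765. The distance to the nearest locus had a median of 1517 bp and at most 11385 bp, and the 86 members were spread over 28 gaps.

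The member of highest score in the run, 3100, at chr2:3313142-3315145, was 2004 bp wide and lay 490 bp from AT2G07687 in a gap of 23457 bp that held 15 members, the most of any gap in the run. The next were chr2:3377567-3378475 with a score of 2920 and chr2:3376468-3377432 with 1677, both between AT2G07702 and AT2G07705, chr2:3496957-3497673 with 2048 beside AT2G07739, and chr2:3334059-3334789 with 1517 in the same gap as the first. Of the run's 86 members, 69 stood in a gap to which RefSeq assigns a protein-coding gene without an entry in the files, 34 in a gap with a tRNA gene and 0 in a gap with a microRNA gene. The 86 members share 28 gaps, so these counts take a gap once for each of its members. The same shares over all gaps were not computed.

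**Figure D5:**
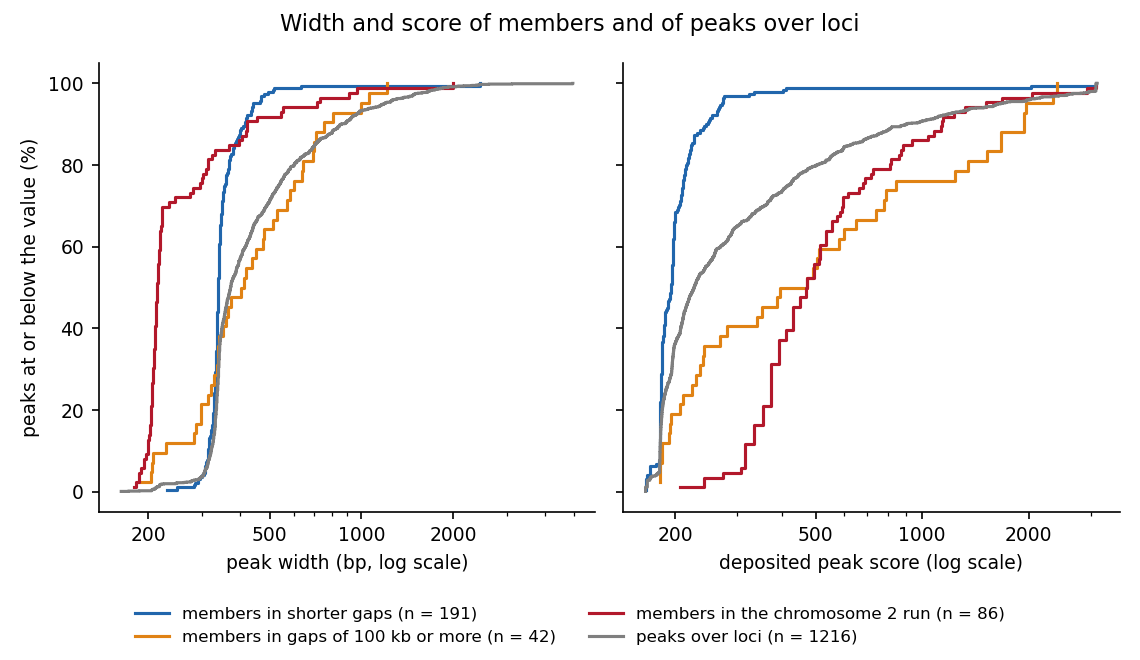
Curves give the percentage of peaks at or below each width in bp (left, log axis) and each deposited score (right, log axis) for 191 members in shorter gaps, 42 members in gaps of 100 kb or more, 86 members of the chromosome 2 run and 1216 peaks over loci. The run stands to the left in width, with a median of 214 bp; its median score of 471 is near the 435 of members in long gaps, whose upper quartile of 831 lies above the 677 of the run.

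Nearly all gene entries in the run were listed at 0, while 24.7% of all 27052 entries were listed at 0 in all 4 libraries. Of 53 entries at 50 loci in the span of its members, 51 were listed at 0 in all 4 libraries. The other entries were AT2G07715, at 2.15 FPKM in spl7 on MS, 1.31 FPKM in wild type on MS, 2.03 FPKM in spl7 with copper and 1.98 FPKM in wild type with copper, and AT2G07774, at 4.54 FPKM in spl7 on MS and 4.75 FPKM in spl7 with copper and listed at 0 in both wild-type libraries. Of the 38 entries nearest to a member of the run, 36 were listed at 0 in all 4 libraries, and none reached the minimum of 5 FPKM for any comparison. Only uniquely mapped reads entered the expression values, per the series description, so reads of sequence with a near-identical copy elsewhere are lost or reduced in them; the part of this in the values of 0 was not tested.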

How the data were processed

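Peaks and transcript levels were compared in 2 ChIP-seq and 4 RNA-seq libraries of whole seedlings, 1 for each combination of genotype and medium that the labels give. The authors obtained the FPKM values with TopHat and Cufflinks on TAIR10 after CASAVA 1.8.2, per the submitters' processing notes. Peaks, each with a score, were deposited by the authors; the ChIP-seq reads were mapped to TAIR10 with Bowtie, per the same notes, and the peak names are of the MACS form. Not given in the sources used here are the meaning of the score, tool versions other than that of CASAVA, the calling threshold and the use made of the spl7 library.

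A member shared no base pair with any locus interval (pandas 2.3.3, checked with bedtools 2.31.1 and on simulated data). Coordinates are 1-based, from the authors' files, read as BED intervals. Distance was counted between nearest edges. Of 27052 entries, 26511 were matched to RefSeq genes of TAIR10.1, which served only for names and gene order. 3373 entries share their interval with another entry, so the split of reads between them rests on the authors' estimate. Ratios are log2 of FPKM + 1; a gene was counted at a minimum of 5 FPKM in either library and a 2-fold ratio, and no test was run. Values of exactly 0 are called listed at 0, since they can be failed estimates.

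Genes and peaks were named by a rule: SPL7; outside the run the 10 members of highest score, the 5 farthest from a locus, members flanked by a copper gene or sharing a gap with a copper microRNA gene, and nearest loci counted in spl7 on MS or with copper in wild type; in the run the 5 members of highest score and the bounding loci. The members and lists were chosen with earlier results of these data known. The share of peaks with GTAC was planned and not analysed, because no genome sequence was used here. The alternatives tried covered the overlap rule, score, pseudocount, minimum level, ratio, scaling and choice of nearest locus.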

Additional observations from a re-analysis of the deposited data

How the results depend on the processing

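No paired analysis was possible because each group is 1 library. Of 97 alternatives computed, 54 stayed within 1.5 times the value reported (for the share within 1 kb, within its 95% exact binomial interval) and the other 43 are given here. With loci extended by 500 bp, 146 members outside the run were left; with 1 kb, 164 members in all, 108 outside the run and 56 in it. A score at or above the list's median left 146 in all and 61 outside the run, and the highest 25% of scores 77 in all, 23 outside the run and 54 in it. The median distance was 8925 bp (22.9% within 1 kb) for members with a score at or above the median, 1385 bp (42.2%) with loci above 0 FPKM alone, and 560 bp (64.9%) without members in long gaps, an alternative chosen after seeing the data. Nearest loci of at least 1 FPKM had medians of 98.4 FPKM in spl7 on MS, 94.98 FPKM in wild type on MS, 95.6 FPKM in spl7 with copper and 103 FPKM in wild type with copper, because loci at 0 are left out by construction.

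Counts of nearest loci are small, so single loci move them. For spl7 over wild type on MS, 1 counted locus became 3 with a pseudocount of 0.1 FPKM and 4 with a minimum of 1 FPKM or none. It became 11 at 1.5-fold, 0 at 4-fold and 3 with both flanking loci. In turn, 147, 156, 199, 147, 147 and 285 entries were tested. Of all entries tested in the same settings, 1.88%, 3.52%, 2.61%, 5.52%, 0.847% and 1.59% were counted. With copper, 0 became 1, 5, 5, 2 and 1 under a pseudocount of 0.1 FPKM, a minimum of 1 FPKM, no minimum, 1.5-fold and both flanking loci. Entries tested numbered 146, 156, 199, 146 and 284 in turn, and 2.1%, 3.61%, 2.68%, 4.68% and 1.8% of all entries tested were counted. For copper over MS in wild type, 2 became 6 with a minimum of 1 FPKM or none, 5 at 1.5-fold, 0 at 4-fold and 1 within 1 kb. Here 156, 199, 147, 147 and 102 entries were tested, and 2.96%, 2.2%, 3.68%, 0.662% and 1.33% of all entries tested were counted. For copper over MS in spl7, 2 became 1 with a pseudocount of 5 FPKM, a minimum of 20 FPKM or within 1 kb. It became 4 with a minimum of 1 FPKM, none, 1.5-fold or both flanking loci, and 0 at 4-fold. Its split of 1 higher and 1 lower became 0 and 1 with a pseudocount of 5 FPKM, 1 and 3 with both flanking loci and 1 and 0 within 1 kb. In that comparison, 146, 121, 101, 155, 199, 146, 285 and 146 entries were tested in the order of the settings. Of all entries tested, 1.84%, 1.51%, 2.51%, 4.47%, 3.32%, 6.38%, 2.51% and 1.06% were counted. The counts of all 4 comparisons are not read as a result about the nearest loci. The cause was not tested. The depth behind the FPKM values and the peaks is unknown.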
